A study of Mus musculus with 2 samples.

Results

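DNA replication and S-phase genes were compared between cells of the newborn mouse tongue with high and with low SOX2-GFP. The genes were chosen by function, as 47 genes of origin licensing, the replication fork and nucleotide supply, and were found by symbol among the 21628 entries of the expression table. Of these, 46 have an entry, 45 reached 5 FPKM (fragments per kilobase of transcript and relative to all mapped fragments) in at least 1 population, and *Cdt1* was not analysed here. Both populations came from *Sox2GFP* mice at P0, the day of birth. Their lingual epithelium was pooled, dissociated with enzymes and sorted by the brightness of the GFP reporter. About 100000 cells per population gave 1 polyA-selected library each, so no difference has a replicate check, and no test or p-value is given. Neither group is a pure cell type. The bins were cut from a continuum of brightness, and no marker other than the reporter is named for the sort. *Sox2* itself had 112 FPKM in GFP-high and 59.0 FPKM in GFP-low cells, in the direction of the sort.

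A replication origin is first licensed, when the origin recognition complex, CDC6 and CDT1 load the MCM2-7 helicase in G1 phase. In S phase the kinases CDC7-DBF4 and cyclin E-CDK2 help to convert the loaded helicase into an active fork by adding CDC45 and GINS, and polymerases then copy both strands behind it. Many genes of this machinery are activated by E2F transcription factors as cells pass from G1 into S phase, while most genes of mitosis are transcribed later in the cycle. In stratified epithelia such as that of the tongue, dividing cells lie in and near the basal layer.

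The replication genes were expressed in both populations at closely matched levels. Summed over the list, GFP-high cells had 1763 FPKM and GFP-low cells 1926 FPKM, 1.09-fold more. The median over the 45 genes at 5 FPKM or more was 35.9 FPKM in GFP-high and 37.1 FPKM in GFP-low cells, and 44 genes were over 10 FPKM in both. The fold between the populations had a median of 1.13 over the 46 genes and never passed 1.63. At 1.5-fold and 5 FPKM in the higher population, 1 member, *Orc1*, was counted for GFP-high cells. Of the 10760 protein-coding genes at that level, 9.48% were counted for GFP-high cells. No member was counted for GFP-low cells, against 8.9% of those genes. The study's methods ask for 5 FPKM in each sample. Its GFP-high genes nevertheless include *Shh*, which is at 0.84 FPKM in GFP-low cells. With 5 FPKM required in both populations the members' counts were again 1 and 0, against 7.76% and 6.32% of all genes. At 1.2-fold, 2 members were counted for GFP-high cells (20.8% of all genes) and 11 for GFP-low cells (24.2% of all genes), and the other 32 (71.1%) lay within 1.2-fold, against 55% of all genes. Small differences leaned to GFP-low cells, in which 33 of the 45 members (73.3%) were higher by any amount, against 55.4% of all genes. On the log2(FPKM + 1) scale the median difference, GFP-high minus GFP-low, was −0.13 over the members and −0.04 over all genes. Dividing each library by its FPKM sum (TPM) lowers all log2 ratios by 0.10 and therefore the members' median too, while the members' distance from the median of all genes, −0.09, does not depend on that scaling.

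**Figure D1:**
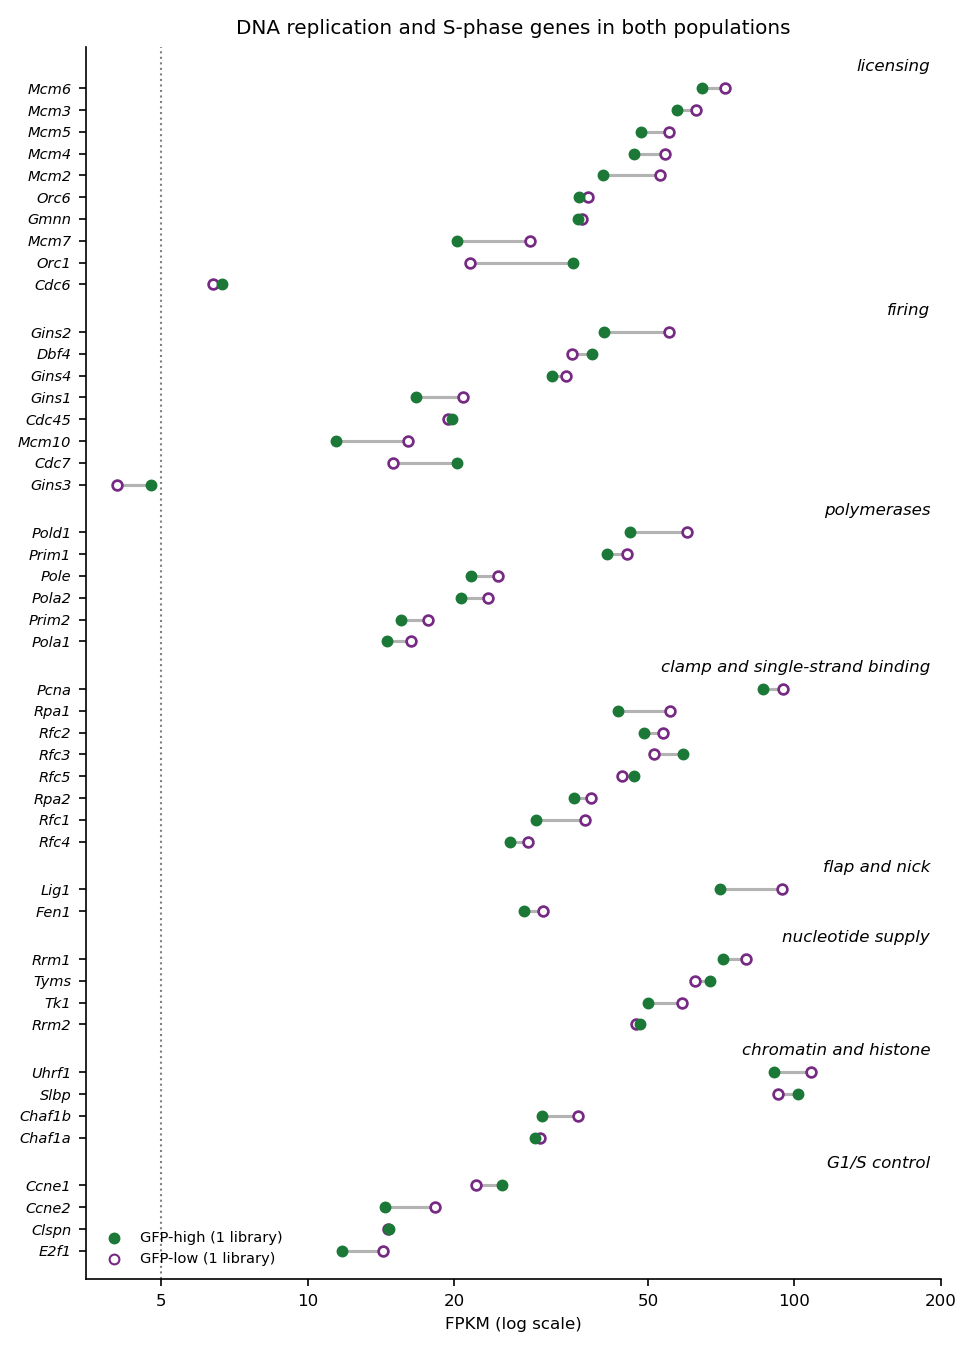
FPKM of the 46 replication genes with an entry, on a log axis, grouped by role. Filled circles are the GFP-high library and open circles the GFP-low library, the grey line joins them, and the dotted line marks 5 FPKM. The circles of most genes lie close together, *Orc1* has the widest gap, and *Gins3* alone lies under 5 FPKM in both.

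The precision of these values was approached through depth. The labels give about 75 M reads per library, while low FPKM of genes with a single transcript fell nearest to whole reads at about 27.5 M in the GFP-high and 35.75 M in the GFP-low library. At those approximate depths, and with the longest annotated transcript of each gene, a member's value rested on about 304 to 14996 reads. The counting error of its ratio was then between 1.28% and 7.92%, with a median of 2.67%. Shorter transcripts would give fewer reads and a larger error. The error covers counting only and says nothing of the spread between animals, which 1 library per population cannot show. For *Fen1*, *Gins2*, *Chaf1a* and *Mcm7*, at least 20% of the 50-nt windows of their transcripts also occur in another gene, an overlapping neighbor for the first 3 and a processed pseudogene for *Mcm7*, so their FPKM are less certain. The shares are 76.7%, 65.4%, 49.7% and 23.3%.

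Some of the members' promoters hold letters of E2F sites, and the choice of genes did not use promoter sequence. RefSeq windows of 300 bases (250 before and 50 after the start, GRCm38.p6) were found for 38 of the 47 members, and *Mcm4*, *Gins1*, *Gins2*, *Gins4*, *Gmnn*, *Rfc2*, *Pole*, *Prim2* and *Ccne2* had no window. E2F letters, TTTCCCGC, TTTCGCGC, TTTGCCGC or TTTGGCGC on either strand, occurred in 14 of the 38 genes (36.8%), against 4.92% of 8232 protein-coding genes at 5 FPKM or more and 2.6% of all 27025 genes with a window. The stretches below hold these letters before the RefSeq start. *Orc1*, *Cdc6*, *Mcm5* and *Mcm6* are licensing genes, while *Pola1*, *Rfc3* and *Uhrf1* have other roles. Such stretches of *Mcm7* and *Gins3* are not shown. Letters in capitals match on the given or the opposite strand, and in *Mcm5* a match on each strand overlap. Of the stretches shown, those of *Orc1* and *Rfc3* meet an annotated exon and are cut to 30 bases.
Orc1 (chr4:108579416-108579445, + strand): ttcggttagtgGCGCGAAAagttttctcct
Cdc6 (chr11:98907987-98908046, + strand): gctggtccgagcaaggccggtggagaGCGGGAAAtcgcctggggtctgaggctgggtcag
Mcm5 (chr8:75109334-75109393, + strand): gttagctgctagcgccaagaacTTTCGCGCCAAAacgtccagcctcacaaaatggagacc
Mcm6 (chr1:128359719-128359778, − strand): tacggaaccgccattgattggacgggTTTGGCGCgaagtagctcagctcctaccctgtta
Pola1 (chrX:93632260-93632319, − strand): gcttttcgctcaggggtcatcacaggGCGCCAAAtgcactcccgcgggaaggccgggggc
Rfc3 (chr5:151651209-151651238, − strand): ccggaagtgacgtcgcacgcTTTCGCGCtc
Uhrf1 (chr17:56304102-56304161, + strand): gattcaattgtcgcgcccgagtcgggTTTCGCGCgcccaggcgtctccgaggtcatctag

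The printed letters begin 27 bases before the start in *Orc1*, 47 in *Mcm6*, 10 in *Rfc3* and 138 in both *Cdc6* and *Pola1*. CCAAT, the core of NF-Y sites, occurred in 23 of the 38 members (60.5%), against 42.9% of the expressed genes and 41.1% of all genes with a window. CHR letters, TTTGAA or TTCGAA, known from promoters of mitotic genes, occurred in 8 members (21.1%), against 16.1% of the expressed genes and 21.7% of all genes with a window. A match of letters is a description of the sequence, and binding was not measured. Among members with a value, the median log2 difference was −0.15 for the 13 with E2F letters and −0.12 for the 24 without them, so both sets leaned the same way by nearly the same amount.

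Licensing genes held *Orc1*, the member with the largest fold toward GFP-high cells, and a helicase that leaned to GFP-low cells. *Orc1* encodes the largest subunit of the origin recognition complex (ENSMUSG00000028587, chr4:108579423-108614833). It had 35.1 FPKM in GFP-high and 21.5 FPKM in GFP-low cells, 1.63-fold higher in the former. The fold was 1.52 after conversion to TPM. It was 1.67 after scaling by the median ratio of the genes at 5 FPKM or more in both populations. Nearest to 1.5-fold on the deposited scale were *Mcm10* and *Mcm7* at 1.41-fold, *Gins2* at 1.36-fold and *Cdc7* at 1.35-fold. On the TPM scale *Mcm10* and *Mcm7* both passed 1.5-fold toward GFP-low cells, at 1.51-fold. *Orc6*, another subunit of the complex, was at 36.2 and 37.7 FPKM in GFP-high and GFP-low cells. *Cdc6*, the ATPase that helps to load the helicase, was the lowest of the licensing genes, at 6.67 and 6.38 FPKM. *Gmnn*, which encodes the CDT1 inhibitor geminin, was level at 35.9 and 36.6 FPKM.

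All 6 genes of the MCM2-7 helicase were higher in GFP-low cells, as were 55.4% of all genes. None changed direction on the TPM or the median-ratio scale. Each of these scales multiplies all ratios by 1 constant, so they give no separate support. *Mcm7* (chr5:138164583-138172422) had 20.3 FPKM in GFP-high and 28.6 FPKM in GFP-low cells, 1.41-fold higher in the latter. *Mcm2* (chr6:88883474-88898780) had 40.5 and 52.9 FPKM, a fold of 1.31 in the same direction. The other members of the helicase were closer, with *Mcm4* at 46.8 and 54.1 FPKM, *Mcm5* at 48.3 and 55.2, *Mcm3* at 57.2 and 62.7 and *Mcm6* at 64.7 and 71.9, folds of 1.09 to 1.16. The order of the 6 levels was the same in both libraries, from *Mcm6* at the top to *Mcm7* at the bottom. The top was 3.19 times the bottom in GFP-high and 2.52 times in GFP-low cells. Together they summed to 278 FPKM in GFP-high cells against 325 FPKM in GFP-low cells.

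Genes that turn a licensed origin into a fork pointed in both directions. The kinase gene *Cdc7* (chr5:106964322-106984432) had 20.2 FPKM in GFP-high and 15.0 FPKM in GFP-low cells, 1.35-fold higher in the former. Its activator *Dbf4* was at 38.5 and 34.9 FPKM, 1.1-fold higher in GFP-high cells. *Cdc45*, which joins the helicase when the origin fires, was level at 19.8 and 19.4 FPKM and changed direction on the TPM scale. *Mcm10* (chr2:4989714-5012791), needed to activate the assembled helicase, had 11.4 FPKM in GFP-high and 16.1 FPKM in GFP-low cells, 1.41-fold higher in the latter. Of the GINS genes, *Gins2* had 40.5 and 55.2 FPKM, *Gins1* 16.7 and 20.9, and *Gins4* 31.8 and 34.0, with folds of 1.36, 1.25 and 1.07 toward GFP-low cells. *Gins3* was the lowest of all members, at 4.76 FPKM in GFP-high and 4.06 FPKM in GFP-low cells, and was left out of the counts by the 5 FPKM minimum.

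All 6 polymerase and primase genes on the list were higher in GFP-low cells, as were 55.4% of all genes. Their folds were at most 1.31 on the deposited scale and 1.40 on the TPM scale. None changed direction on the TPM or the median-ratio scale, which again give no separate support. *Pold1*, the catalytic subunit of the lagging-strand polymerase delta, had the widest gap, with 46.0 FPKM in GFP-high and 60.1 FPKM in GFP-low cells. *Pole*, the catalytic subunit of the leading-strand polymerase epsilon, was at 21.7 and 24.6 FPKM. The genes of polymerase alpha-primase, which lays down the primers, differed by nearly the same factor, at most 1.14. *Pola1* was at 14.6 and 16.3 FPKM, *Pola2* at 20.6 and 23.5, *Prim1* at 41.2 and 45.2 and *Prim2* at 15.5 and 17.7.

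*Pcna*, which encodes the sliding clamp that holds polymerases on DNA (chr2:132249162-132253314), was among the most abundant members, at 86.3 FPKM in GFP-high and 94.5 FPKM in GFP-low cells. The clamp is loaded by replication factor C. Of its genes, *Rfc1* (29.4 and 37.1 FPKM in GFP-high and GFP-low cells), *Rfc2* (49.0 and 53.7) and *Rfc4* (26.0 and 28.3) were higher in GFP-low cells. *Rfc3* (59.1 and 51.3) and *Rfc5* (46.9 and 44.1) were higher in GFP-high cells, *Rfc5* not on the TPM scale. *Rfc1*, the large subunit, had the largest of these folds, 1.26. The single-strand binding genes *Rpa1* (43.5 and 55.5 FPKM) and *Rpa2* (35.3 and 38.2 FPKM) were 1.28 and 1.08-fold higher in GFP-low cells. For the last steps on the lagging strand, the ligase gene *Lig1* (chr7:13277283-13311433) had 70.2 and 94.3 FPKM, 1.34-fold higher in GFP-low cells, and the flap endonuclease gene *Fen1* 27.8 and 30.5.

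Genes of nucleotide supply were split evenly in direction on the deposited scale. The split rests on *Rrm2*, which differed by 1.02-fold, within its counting error of 2.6%, and changed direction on the TPM scale. Ribonucleotide reductase makes deoxyribonucleotides, and its large subunit *Rrm1* had 71.4 FPKM in GFP-high and 79.5 FPKM in GFP-low cells, while its S-phase partner *Rrm2* had 48.2 and 47.3 FPKM. *Tyms*, the thymidylate synthase gene, was at 67.1 and 62.3 FPKM, and *Tk1*, the thymidine kinase of the salvage route, at 49.96 and 58.8 FPKM. None of the 4 passed 1.2-fold. Genes that restore chromatin behind the fork included the most abundant members. *Uhrf1*, needed to copy DNA methylation (chr17:56303321-56323486), was at 90.9 and 108 FPKM, the highest member in GFP-low cells. *Slbp*, which binds the stem-loop of histone mRNAs (chr5:33634952-33652574), was at 102 and 92.6 FPKM, the highest member in GFP-high cells. The histone chaperone genes *Chaf1a* (29.3 and 30.1 FPKM) and *Chaf1b* (30.2 and 35.9 FPKM) differed by 1.03 and 1.19-fold.

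Regulators of S-phase entry were expressed at lower levels than most of the machinery. *E2f1*, an activator of the other genes, had 11.8 FPKM in GFP-high and 14.3 FPKM in GFP-low cells, 1.21-fold higher in the latter. The cyclin E genes pointed in opposite directions, *Ccne1* at 25.1 and 22.2 FPKM and *Ccne2* at 14.4 and 18.3 FPKM, with folds of 1.13 toward GFP-high and 1.27 toward GFP-low cells. *Clspn*, an adaptor of the replication checkpoint, was level at 14.7 and 14.6 FPKM. Over the 8 role groups the median log2 difference lay between −0.06 (nucleotide supply) and −0.27 (flap and nick, 2 genes), so that no role group had a median above 0. The median over all genes was itself −0.04, close to that of nucleotide supply. With a minimum of 1 FPKM, the genes that turn a licensed origin into a fork had a median of −0.03.

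Complexes were also examined with the subunits that are not members. *Orc2* (28.1 and 32.1 FPKM in GFP-high and GFP-low cells), *Orc3* (28.6 and 39.0), *Orc4* (85.5 and 75.9) and *Orc5* (29.6 and 26.7) differed by 1.11 to 1.37-fold, so *Orc1* had the widest gap of the 6 subunits. *Orc1* was the third most abundant subunit in GFP-high cells and the least abundant in GFP-low cells. In polymerase delta, *Pold2* (71.8 and 82.3 FPKM) and *Pold3* (88.2 and 107 FPKM) leaned to GFP-low cells as *Pold1* did, whereas *Pold4* (35.0 and 28.4 FPKM) was 1.23-fold higher in GFP-high cells. In polymerase epsilon, *Pole2* (8.84 and 11.96 FPKM) and *Pole4* (33.7 and 44.8 FPKM) were 1.35 and 1.33-fold higher in GFP-low cells, and *Pole3* (73.0 and 66.5 FPKM) was not. *Rpa3* was at 29.6 and 27.3 FPKM.

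**Figure D2:**
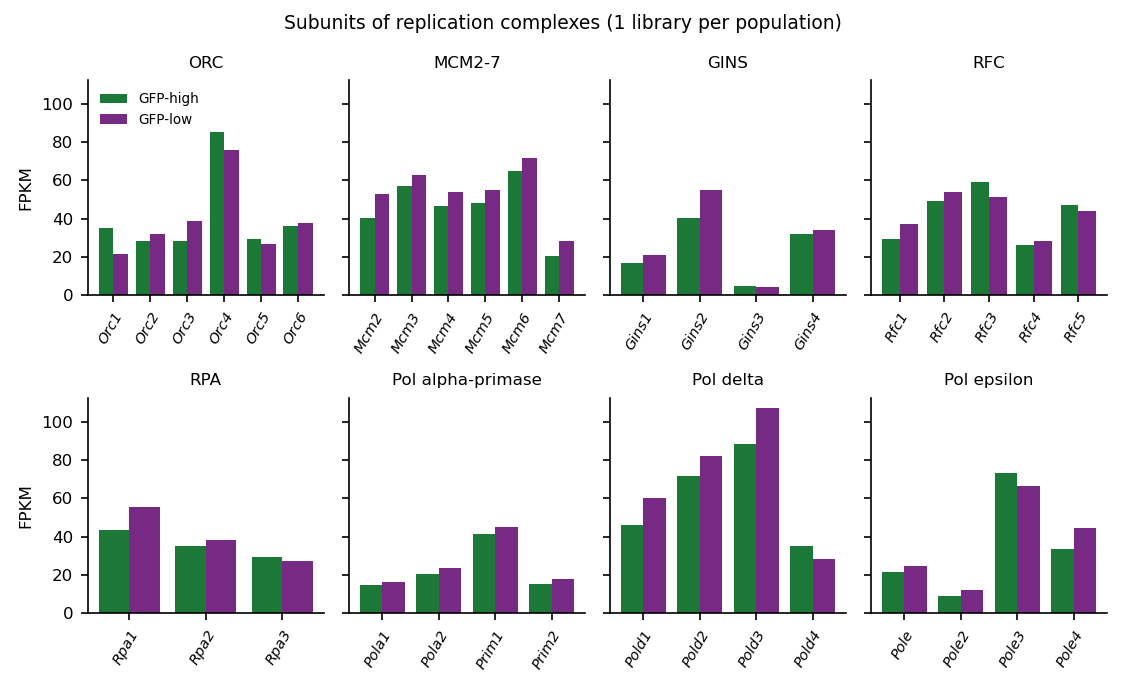
FPKM of the subunits of 8 replication complexes, with GFP-high in green and GFP-low in purple, 1 library each and no error bars. The 6 MCM bars are all taller in GFP-low cells, and *Orc1* is the subunit of ORC with the widest gap, at 35.1 and 21.5 FPKM.

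The wider replication list behaved much as the members did. Of 59 further genes at 5 FPKM or more, 1 was counted at 1.5-fold for each population. Of all genes, 9.48% were so counted for GFP-high and 8.9% for GFP-low cells. GFP-low cells had the higher level of 39 of the 59 (66.1%), against 55.4% of all genes, with a median log2 difference of −0.10. *Samhd1*, which encodes an enzyme that breaks down deoxyribonucleotides, had 89.8 FPKM in GFP-high and 31.8 FPKM in GFP-low cells, 2.82-fold higher in the former. *Top2a* (233 and 182 FPKM) and the histone chaperone gene *Asf1a* (22.96 and 18.4 FPKM) followed in that direction with folds of 1.28 and 1.25. *Timeless*, a fork protection gene, had 23.7 FPKM in GFP-high and 46.2 FPKM in GFP-low cells, 1.95-fold higher in the latter, followed by *Rnaseh2b* and *Atad5* at 1.47 and 1.41-fold. Of 23 further E2F and G1/S genes, 2 were counted for GFP-low cells, *E2f3* (17.5 and 29.7 FPKM) and *Rb1* (25.4 and 38.5 FPKM). This is near the 8.9% of all genes counted for GFP-low cells. None was counted for GFP-high cells, against 9.48% of all genes. *Chek1* was 1.43-fold higher in GFP-low cells, while *E2f7*, *E2f8* and *Wee1* were 1.38, 1.36 and 1.33-fold higher in GFP-high cells.

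Set beside genes that act later in the cycle, the replication genes differed in direction. Of 34 genes of G2 phase and mitosis, 33 were higher in GFP-high cells, 27 by at least 1.2-fold and 10 by at least 1.5-fold. None was counted for GFP-low cells. Of all genes, 20.8% and 9.48% passed these folds toward GFP-high cells, and 8.9% passed 1.5-fold toward GFP-low cells. GFP-low cells had the higher level of 55.4% of all genes. The median log2 difference of the 34 genes was 0.42, against −0.13 for the replication genes. The 34 genes summed to 2475 FPKM in GFP-high cells against 1738 FPKM in GFP-low cells. On the TPM scale, a check that was not planned, 32 remained higher in GFP-high cells, with a median of 0.33. There 7 passed 1.5-fold, against 7.54% of all genes. *Cenpf*, a kinetochore gene (79.7 and 42.4 FPKM), *Kif23*, a motor gene of cytokinesis (75.8 and 41.8), and *Cdc20*, an activator of the anaphase-promoting complex (119 and 69.0), had the largest folds, 1.88, 1.81 and 1.72. *Nuf2* (25.4 and 27.6 FPKM) was the exception. *Mki67*, a gene of all dividing cells and 1 of the 34, was at 63.9 and 60.1 FPKM. The cyclin A gene *Ccna2*, used in both S and G2 phase and not 1 of the 34, was at 84.3 and 79.7 FPKM. Both changed direction on the TPM scale. The difference between the lists could not be tested with 1 library per population. The promoter letters of the lists also differed. E2F letters occurred in 1 of 29 mitotic genes with a window (3.45%) against 14 of 38 members, and CHR letters in 22 of the 29 (75.9%) against 8 of 38. Among the expressed genes the shares were 4.92% and 16.1%, so the E2F share of the mitotic genes was near that of expressed genes. CCAAT was closer between the lists, in 21 of the 29 (72.4%) and 23 of the 38 (60.5%), against 42.9% of the expressed genes.

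**Figure D3:**
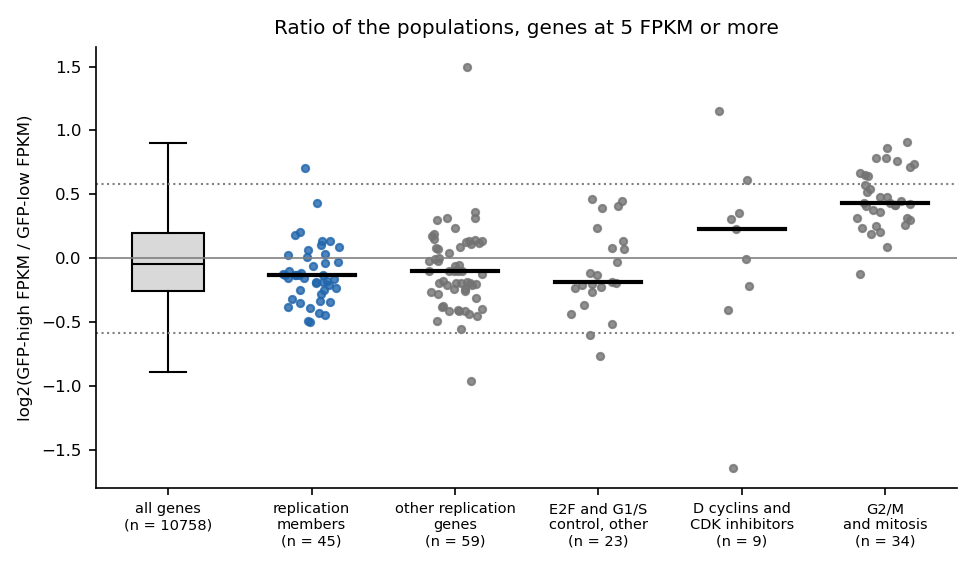
Log2 ratio of GFP-high to GFP-low FPKM for genes at 5 FPKM or more. The box gives the quartiles of all protein-coding genes with whiskers at percentiles 5 and 95, points are single genes, black bars are list medians and dotted lines mark 1.5-fold. Replication genes sit just below 0 and G2 and mitosis genes above it.

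**Figure D4:**
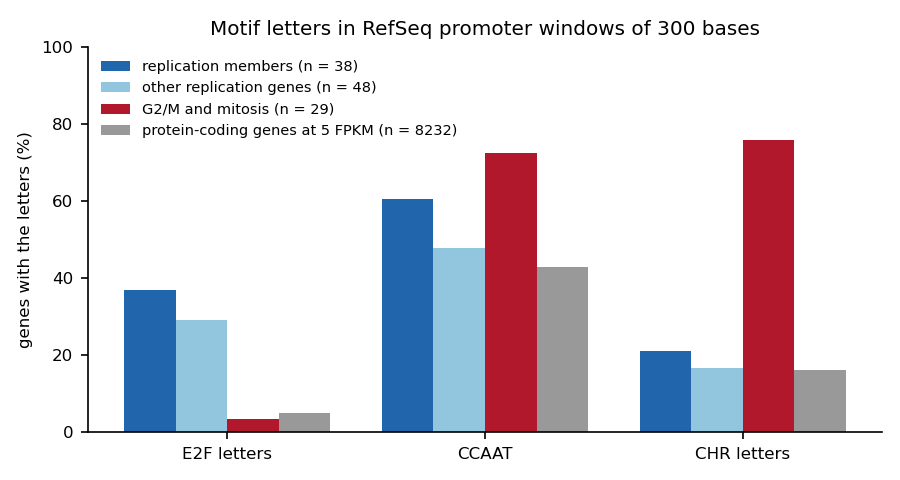
Share of genes, in percent, whose RefSeq promoter window holds the E2F, CCAAT or CHR letters, for 4 gene lists with n as the number of genes that have a window. E2F letters stand at 36.8% in the replication members and 3.45% in mitotic genes, and CHR letters at 21.1% and 75.9%. In protein-coding genes at 5 FPKM or more they stand at 4.92% and 16.1%.

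Markers of other cell types differed between the populations in both directions or were low in both. Their part in the replication values was not tested. In bulk RNA, fewer cells of a type and less RNA per cell cannot be told apart. Of all genes, 9.48% passed 1.5-fold toward GFP-high and 8.9% toward GFP-low cells, and 55.4% were higher in GFP-low cells by any amount. Of 11 fibroblast markers, 8 reached 5 FPKM, and all 8 were higher in GFP-low cells by 1.5-fold or more, and the list summed to 580 FPKM in GFP-high and 2946 FPKM in GFP-low cells, with *Col3a1* at 193 and 966 FPKM and *Postn* 10.5-fold higher in the latter. Of the Schwann lineage markers, *Foxd3* was at 0.12 FPKM in GFP-high and 19.0 FPKM in GFP-low cells. All 7 basal keratinocyte markers were higher in GFP-low cells, 1 of them (*Itgb4*) by 1.5-fold, and summed to 25796 and 32952 FPKM, with *Krt5* at 9667 and 10422 FPKM. Of 8 suprabasal markers, 7 reached 5 FPKM, all higher in GFP-high cells and 4 by 1.5-fold. The list summed to 73028 and 32483 FPKM, with *Krt13* at 30523 and 9738 FPKM and *Krt4* 6.11-fold higher in the former. Of the taste cell markers, 5 of 8 reached 5 FPKM, all higher in GFP-high cells, with *Krt19* at 141 and 65.3 FPKM and *Shh* at 20.7 and 0.84 FPKM. Endothelial (34.8 and 25.03 FPKM summed, with *Egfl7* at 18.5 and 15.9 and *Pecam1* at 5.31 and 2.38), leukocyte (15.6 and 18.1, with *Cd68* at 14.0 and 15.3 and *Ptprc* at 0.06 and 0.02) and skeletal muscle markers (11.9 and 14.8, with *Acta1* at 7.25 and 8.57 and *Myod1* at 0.54 and 0.09) were low in both.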

How the data were processed

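The deposited values are FPKM with 2 decimals, which the authors computed in Cufflinks 2.2.1. Per the labels, they come from 50-nt reads in 1 direction. GSNAP was the aligner (mouse build mm10), after Trimmomatic 0.36. The libraries were stranded, but whether Cufflinks used strand is not given in the sources used here, so overlapping genes may share reads. Although both FPKM columns are headed as means, the labels list 1 library for each population. A deposited fold column, the authors' own comparison, was not used. Of 21628 entries, 21 that GENCODE M21 (GRCm38) types as non-coding and 17 without a number were left out. Where a symbol has several entries, the one with the highest mean FPKM was kept. Ratios and log2(FPKM + 1) differences were computed with pandas 2.3.3 and tested on simulated data. Depth was sought where low FPKM of genes with 1 transcript of 400 to 2500 nt, times length less 200 nt, lay within 0.15 of whole reads, which held for 68.0% of 153 values in the GFP-high and 63.3% of 109 in the GFP-low library. The steps were too uneven to recover read counts. Named genes were all members, other subunits of their complexes and, in the other lists, the 3 largest folds in each direction at 5 FPKM or more (markers: the highest FPKM and the largest fold). *Mki67*, *Ccna2*, *Ccnd3* and *Cdkn2a* lie outside this rule and were named after their values were seen. Members and lists were chosen with earlier results of these data known. Promoter sequences are from RefSeq. The summed level and counts of the Schwann lineage list, and 1 of its markers, are not reported here.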

Additional observations from a re-analysis of the deposited data

How the results depend on the processing

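The members' median log2 difference, −0.13, was −0.23 on the TPM scale, −0.091 with GFP-low scaled by the median ratio (0.973) and −0.14 with a minimum of 10 FPKM. On the TPM scale 2 members, *Mcm7* and *Mcm10*, passed 1.5-fold toward GFP-low cells instead of 0, and 7 were higher in GFP-high cells instead of 12, since *Cdc6*, *Cdc45*, *Rfc5*, *Rrm2* and *Clspn* changed direction. With the median ratio *Gmnn* and *Chaf1a* did so. A 1.2-fold minimum counted 2 members for GFP-high and 11 for GFP-low cells, and a 2-fold minimum counted 0 for GFP-high cells. The role groups' medians were negative under each of the 7 alternatives tried. This is a weak check, since the TPM scale can only lower them and the FPKM minimums left most unchanged. The median over all genes, −0.04, was negative too. With 5 FPKM required in both populations (added after seeing the data), no value of the members changed. Without the 4 members that share windows with other genes (chosen after seeing the data), the median stayed at −0.13 and 12 and 29 members were higher in GFP-high and GFP-low cells. No paired analysis was possible because each population has 1 library. Depth limits *Gins3* most, at about 304 and 337 reads.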

Other observations

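The D cyclins and CDK inhibitors, which act before S phase, differed more than the replication genes did. *Ccnd1*, a cyclin that couples growth signals to S-phase entry, had 44.9 FPKM in GFP-high and 140 FPKM in GFP-low cells, 3.11-fold higher in the latter. *Ccnd2* was at 130 and 172 FPKM, while *Ccnd3* was level at 281 and 282 FPKM. Of the inhibitor genes at 5 FPKM or more, most were higher in GFP-high cells. They made up the 5 of the 9 listed genes at that level that were higher there. The other 4 were higher in GFP-low cells, as were 55.4% of all genes. The 3 largest folds toward GFP-high cells follow. *Cdkn2b* had 12.5 and 5.62 FPKM, a fold of 2.22, *Cdkn1c* 159 and 104 FPKM, a fold of 1.53, and *Cdkn2c* 28.8 and 22.5 FPKM, a fold of 1.28. *Cdkn1b* was not, at 35.8 and 41.6 FPKM. *Cdkn2a* is listed at 0 in GFP-high cells and at 0.16 FPKM in GFP-low cells. Over the 9 genes at 5 FPKM or more, 2 were counted at 1.5-fold for GFP-high and 1 for GFP-low cells. Of all genes, 9.48% were so counted for GFP-high and 8.9% for GFP-low cells. The median log2 difference of the 9 genes was 0.22. These genes were part of a list and single libraries, and no test was possible.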
